A study of Ovis aries with 20 samples.

Results

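Normal maturation of the fetal sheep trachea was measured by comparing wild-type (WT) tracheas of late gestation with those of early gestation. The comparison used 8 of the 20 libraries of the series: 4 late libraries, 2 of gestation day 120 and 2 of day 147 (birth), against 4 early libraries, 2 of day 65 and 2 of day 80. The 2 WT libraries of day 100 were left out of the test and are shown between the stages. All of these animals are labelled healthy, and no treatment is labelled. The remaining 10 libraries came from sheep labelled CF (cystic fibrosis, the disease caused by loss of the CFTR anion channel), and the 8 of the same ages were used only to ask whether the WT change differed from that in CF. The series asks, by its title, about early developmental deficits in CF sheep, so the WT course is its reference.

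The airway of a mammal forms from a tube of foregut epithelium surrounded by mesenchyme. As gestation proceeds the dividing progenitors give way to multiciliated cells, which beat mucus towards the throat, and to secretory cells and submucosal glands, which release mucins and antimicrobial proteins. The mesenchyme lays down cartilage rings, smooth muscle and an extracellular matrix that is rebuilt as the tube grows.

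RNA was total RNA of frozen tissue labelled as tracheal epithelium. The libraries also held genes of the wall beneath it, and COL1A1, a collagen chain of fibroblasts and bone, was the leading gene of both day 65 libraries. Counts summed to between 42372433 and 73710784 per library in the 8 libraries compared, and 18402 genes passed the filter on low counts. Levels below are CPM, counts divided by the TMM-scaled library total and set to a common scale, and fold changes are log2 values of late over early with their standard errors (SE), n = 4 libraries a side. Several libraries stood apart. TG, the thyroid hormone precursor thyroglobulin, took 11.02% of the counts of day 80 replicate 2, and the 14 tested thyroid markers summed to 105600 CPM there against at most 3887 CPM in the other 9 WT libraries. The 12 tested thymus markers summed to 441 CPM in day 65 replicate 2 and 393 CPM in day 80 replicate 2, against 31.1 to 84.0 CPM elsewhere, and the 43 skeletal muscle markers reached 1802 CPM in day 65 replicate 2. The slope of log2 CPM on log2 gene length, taken against the mean of the 10 libraries, was below 0 in day 80 replicate 1, both day 100 libraries, day 120 replicate 2 and day 147 replicate 2 (-0.25 to -0.09) and above 0 in the other 5 (0.11 to 0.28). The labels do not say that the 2 samples of an age came from separate animals, and both day 100 samples carry the same identifier. The p-values therefore measure only the spread between these samples. The main test fits stage alone, so differences between the 2 ages of a stage count as part of that spread. WT day 65 replicate 2 shares its identifier with a CF day 100 sample.

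The genes that rose the most among those past the test act in airway secretions. With edgeR's quasi-likelihood test and Benjamini-Hochberg adjustment over all 18402 genes, 9 genes passed an adjusted p of 0.05 (0.0489% of genes tested), 6 higher in late libraries (0.0326%) and 3 lower (0.0163%). In all, 3019 genes had an unadjusted p under 0.05. The 6 that rose were PIGR, LPO, CFHR5, MX2, SERPINE2 and a gene given only by the identifier LOC443475 on an unplaced scaffold. The 3 that fell were FNDC1, FBN3 and WFIKKN2. The plot of these 9 genes shows each library. In bulk tissue, more or fewer cells of a type and more or less RNA per cell cannot be told apart.

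**Figure D1:**
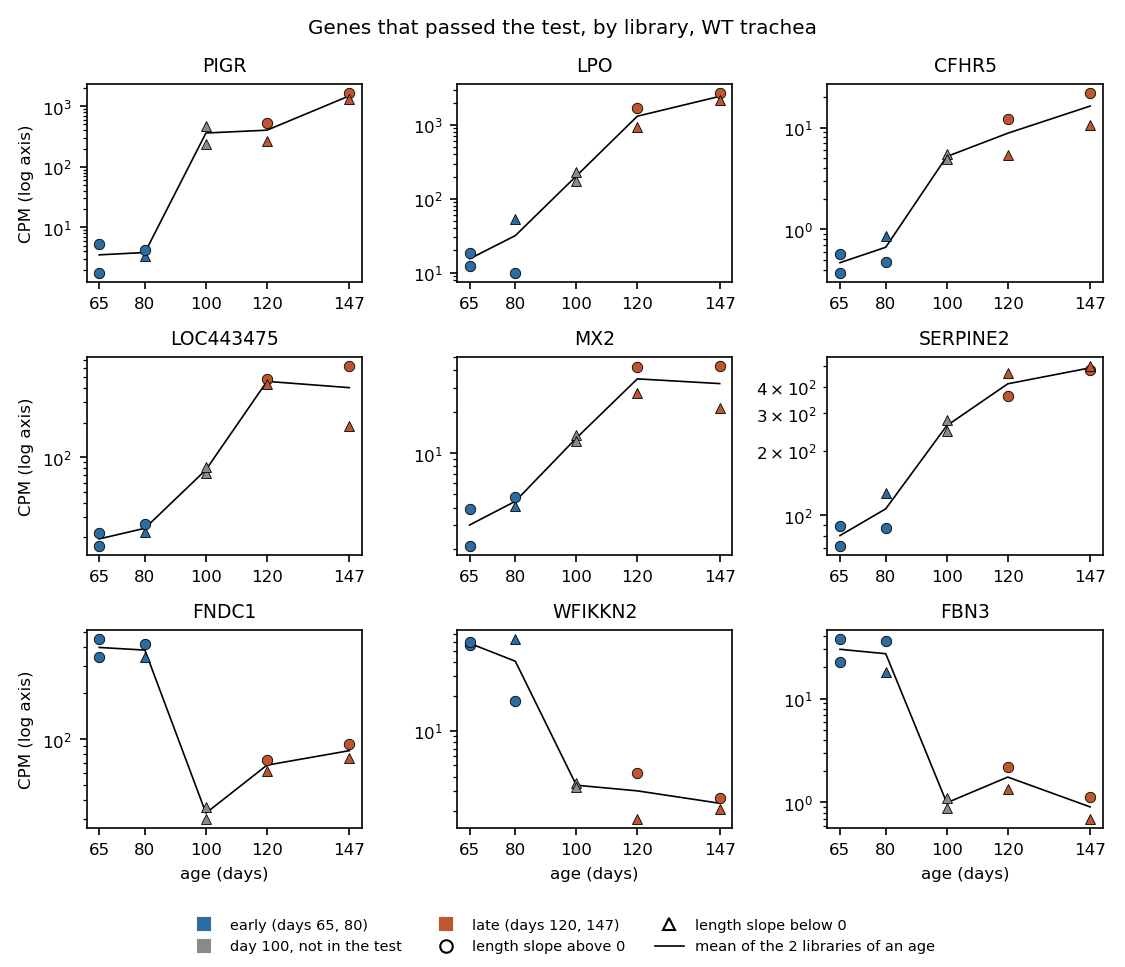
CPM of the 9 genes that passed the test (vertical log axes) against gestational age in days, 1 marker per library and a line through the mean of the 2 libraries of an age. Colours give the stage, and triangles mark libraries whose length slope is below 0. In each panel the 4 late libraries lie wholly above or wholly below the 4 early ones, and the day 100 libraries are already far from the early level.

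PIGR (chromosome 12, 3986944 to 4004957, minus strand, in the build of the deposited table, which the labels and table headers used here do not name) encodes the receptor that carries polymeric immunoglobulin across epithelium into secretions. It measured 1.76 and 5.27 CPM at day 65, 3.41 and 4.27 at day 80, 243 and 481 at day 100, 539 and 267 at day 120, and 1657 and 1313 at birth. The lowest late library was far above the highest early one, and the day 100 pair overlapped with the day 120 pair. The log2 fold change was 8.01 ± 0.80 (SE; edgeR adjusted p = 0.0295). LPO (chromosome 11, 8745903 to 8775927, plus strand), the airway and milk peroxidase that makes an antimicrobial oxidant, measured 18.6, 12.2, 53.6 and 9.87 CPM in the early libraries. It stood at 176 and 231 CPM at day 100 and at 1698, 930, 2708 and 2171 CPM in the late ones. All late libraries exceeded all early and day 100 libraries, by a log2 fold change of 6.32 ± 0.75 (edgeR adjusted p = 0.0466).

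CFHR5 (chromosome 12, 74010782 to 74039075, plus strand), a plasma protein of the complement factor H family, was low throughout: 0.372 to 0.860 CPM early, 5.45 and 4.94 at day 100, and 12.2, 5.44, 21.9 and 10.7 late (log2 4.46 ± 0.55, edgeR adjusted p = 0.0488). MX2 (chromosome 1, 259515453 to 259554045, plus strand), an interferon-induced GTPase, measured 2.09, 3.88, 4.09 and 4.80 CPM early and 42.2, 27.3, 43.0 and 21.2 late, with 13.4 and 12.3 at day 100 between them (log2 3.17 ± 0.37, adjusted p = 0.0466). SERPINE2 (chromosome 2, 225104734 to 225176007, minus strand) encodes protease nexin 1, an inhibitor of thrombin and plasminogen activators, and was already well expressed. Its early libraries held 71.4, 88.8, 127 and 86.9 CPM and its late ones 360, 464, 481 and 499 (log2 2.27 ± 0.27, adjusted p = 0.0466). LOC443475 went from 16.8 to 25.9 CPM early through 72.5 and 82.7 at day 100 to 479, 436, 621 and 186 late (log2 4.31 ± 0.41, adjusted p = 0.0295). In each of these 4 genes the late libraries lay above the early ones without overlap.

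The 3 genes that fell belong to the extracellular space. FNDC1 (chromosome 8, 82048250 to 82163145, plus strand), a fibronectin type III domain protein, measured 345, 449, 345 and 418 CPM early and 73.6, 61.6, 92.4 and 75.7 late. Within each stage its libraries were close together, and the 2 day 100 libraries (35.8 and 29.9 CPM) were lower than any late one. The fold change was -2.36 ± 0.23 on the log2 scale (edgeR adjusted p = 0.0295). FBN3 (chromosome 5, 14397671 to 14467101, minus strand), the fibrillin of fetal tissues, measured 22.4, 37.2, 17.9 and 36.1 CPM early against 2.17, 1.34, 1.13 and 0.688 late (log2 -4.41 ± 0.46, adjusted p = 0.0324). WFIKKN2 (chromosome 11, 35399205 to 35404942, minus strand), a secreted protein that binds myostatin and GDF11, measured 56.1, 60.1, 62.9 and 18.1 CPM early and 4.31, 1.69, 2.62 and 2.07 late (log2 -4.20 ± 0.50, adjusted p = 0.0466). The lowest of its early libraries, day 80 replicate 2, is also the one with the thyroid signal.

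The count of 9 depended on single libraries. Leaving out 1 library at a time left 0 genes called in 5 of 8 fits, 1 gene without day 120 replicate 2 or without birth replicate 2, and 423 higher and 192 lower without day 80 replicate 1. A second, descriptive rule was therefore used for gene groups: all 4 late libraries above, or all below, all 4 early ones in CPM. By this rule 1040 genes were higher in late trachea (5.65% of the 18402 tested) and 1019 lower (5.54%). Counts below are read against these shares. A fit with the length slope as a covariate called 866 genes higher (4.71%) and 720 lower (3.91%) at an adjusted p of 0.05 (edgeR), and a fit with 1 coefficient per age over 10 libraries called 273 higher (1.48%) and 231 lower (1.26%). The median log2 fold change of all tested genes was -0.04, and it moved to -0.20 when libraries were scaled by their totals alone. Apart from the 9 genes above and the genes of a list of 43 key genes, single genes named below for not overlapping were picked after their values were seen.

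**Figure D2:**
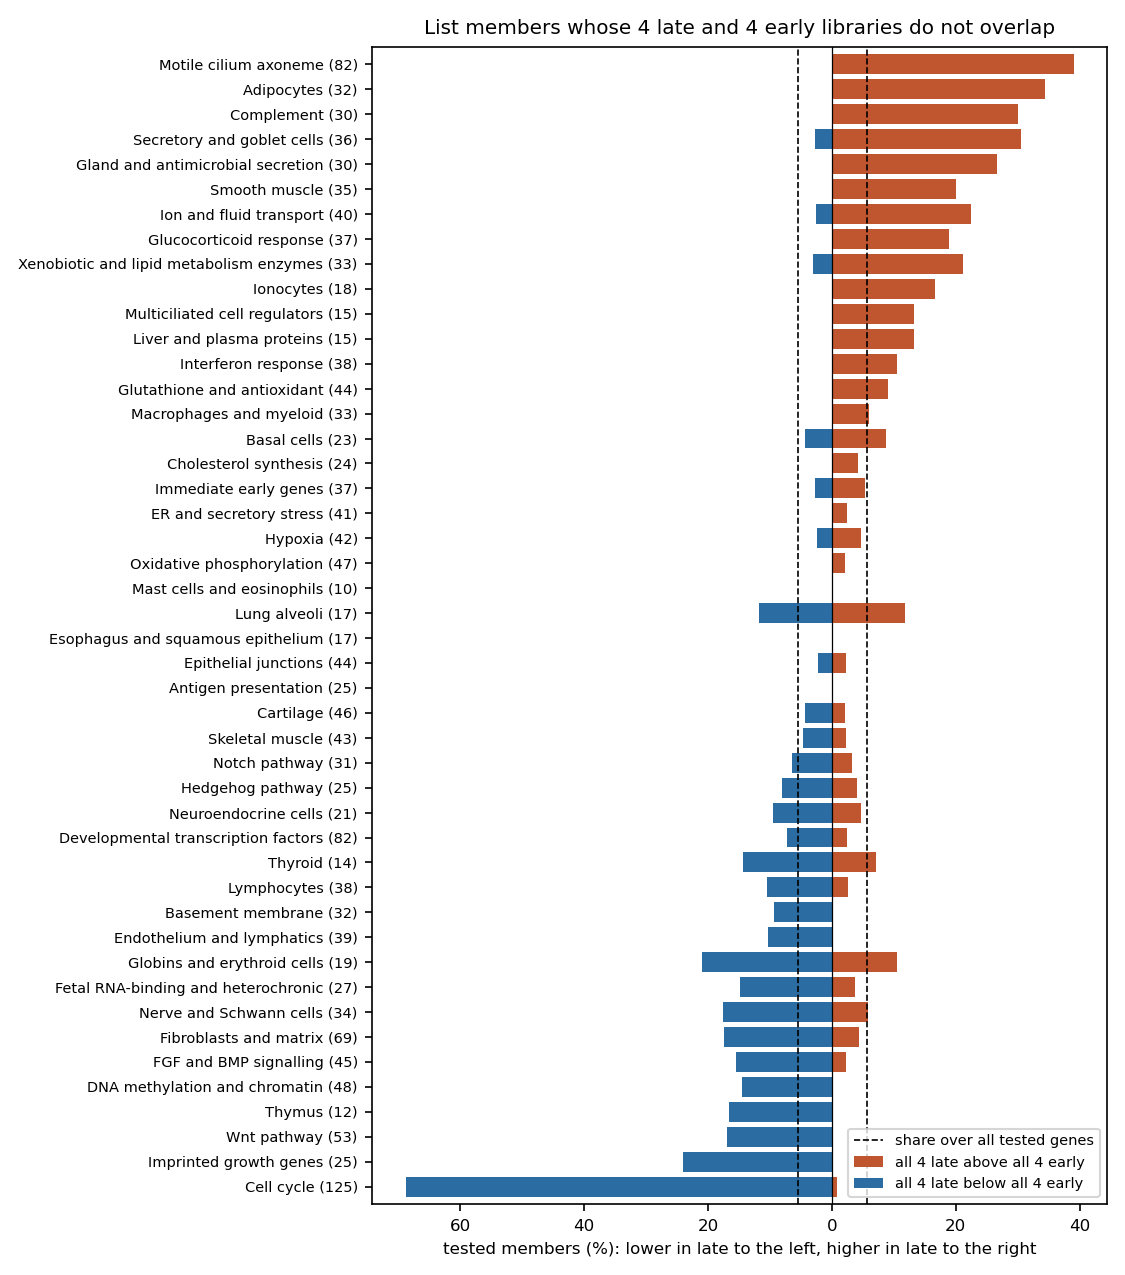
Percent of the tested members of each gene list (number tested in brackets) whose 4 late libraries all lay above the 4 early ones (to the right) or all below (to the left). Dashed lines give the same shares over all 18402 tested genes, 5.65% and 5.54%. Motile cilium genes reach 39.02% to the right and cell cycle genes 68.8% to the left.

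Cell division genes had the largest share of members that separated of the 46 lists. Of 125 tested members of the cell cycle list, 121 had a negative fold change, and in 86 (68.8%) all late libraries lay below all early ones, against 1 member above. The median log2 fold change was -1.21, against -0.04 over all genes. None passed the main test, while the fit with the length slope called 76 lower and 0 higher. The summed level of the list was 3887 to 4950 CPM early, 3114 and 3285 CPM at day 100, and 1960 to 2600 CPM late. The stages thus did not overlap, and day 100 fell between them. Day 65 replicate 2 and day 80 replicate 2, which hold thymus markers, had the highest sums, 4950 and 4934 CPM. The other early libraries had 4242 and 3887 CPM. The part of thymus tissue in these levels was not tested. Over 26 alternatives, among them leaving out both libraries, the median ranged from -1.42 to -1.05. TOP2A, the topoisomerase that untangles replicated DNA, measured 187, 224, 97.0 and 198 CPM early, 83.3 and 77.5 at day 100, and 62.7, 51.6, 54.2 and 27.9 late. Its log2 fold change was -1.85 ± 0.34 (edgeR adjusted p = 0.0716). The mitotic kinesin KIF11 ran from 51.8, 61.3, 27.5 and 62.8 CPM early to 16.6, 14.7, 13.8 and 8.09 late. For both genes, day 80 replicate 1 was the lowest early library. MKI67, the common proliferation antigen, did overlap: day 80 replicate 1 held 16.02 CPM, below 2 late libraries with 45.5 and 38.9 CPM, while the other early libraries held 126 to 175 CPM (log2 -2.18 ± 0.83, adjusted p not under 0.05).

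Genes that maintain chromatin through division showed a like pattern on a smaller scale. Of 48 tested members of the DNA methylation and chromatin list, 7 were lower without overlap (14.58%) and 0 higher. A negative fold change was found in 40, and the median was -0.41. UHRF1, which recruits the maintenance DNA methyltransferase to newly copied DNA, measured 82.4, 130, 54.0 and 120 CPM early and 33.5, 32.5, 23.8 and 19.7 late. Its highest early values came from the libraries with thymus markers. EZH2, the Polycomb histone methyltransferase, measured 46.1 to 62.1 CPM early and 14.8 to 37.1 late.

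Imprinted growth genes were lower late more often than higher. Of 25 tested imprinted genes, 6 were lower without overlap (24%) and 0 higher, with a median log2 fold change of -0.85. MEST, a mesoderm gene expressed from the paternal allele, measured 384, 459, 542 and 165 CPM early and 117, 139, 51.1 and 80.0 late, and the day 100 pair (77.2 and 48.8 CPM) was as low as birth. IGF2, the fetal growth factor, did not separate: 398, 428, 82.7 and 180 CPM early against 237, 34.0, 110 and 15.2 late, with 9.16 and 6.62 at day 100. DLK1, a Notch-like inhibitor of fat cell differentiation, ranged from 410 to 2428 CPM early and from 101 to 1286 late. Of the 27 tested fetal RNA-binding and heterochronic genes, 4 were lower without overlap (14.81%) and 1 higher (3.704%). Their median of -0.71 was -0.19 in the fit that holds the length slope. It was 0.004 between libraries of low slope, of which day 80 replicate 1 is the only early one. The list's library scores overlapped between stages. The mRNA-binding protein IGF2BP1 measured 34.6, 14.7, 10.3 and 4.95 CPM early, 2.00 and 1.62 at day 120, and was at 0 in both birth libraries. Its paralog IGF2BP3 measured 38.3, 31.6, 23.4 and 40.7 CPM early and 17.5, 12.2, 5.99 and 5.46 late. HMGA2, a chromatin protein of fetal growth, overlapped because day 80 replicate 1 held 0.215 CPM, beside 0.222 CPM in day 120 replicate 1. LIN28B, an inhibitor of let-7 maturation, was left out by the filter, which asks for enough counts in 4 libraries. Its counts were 60, 418, 2 and 534 in the early libraries, 0 in both at day 100, and 4, 4, 2 and 0 in the late ones. Thus 3 early libraries held nearly all of them. The counts of 418 and 534 came from the libraries with thymus markers, day 65 replicate 2 and day 80 replicate 2. The part of other tissue in these counts was not tested.

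Signals that pattern the early airway wall were mostly lower late. Of 53 tested Wnt pathway genes, 47 had a negative fold change, 9 were lower without overlap (16.98%) and 0 higher, with a median of -0.56. LEF1, a transcription factor of the canonical Wnt pathway, measured 13.7, 83.9, 17.1 and 71.6 CPM early and 4.22, 5.89, 4.34 and 2.45 late. Its 2 highest early libraries are those with thymus markers, and LEF1 is also a T cell factor; the part of thymus tissue in its level was not tested. Among the Wnt antagonists in the list, 3 are described here that did not overlap. SFRP2 measured 165, 207, 132 and 76.1 CPM early and 52.6, 39.8, 34.4 and 25.6 late, and WIF1 measured 10.4, 7.17, 5.34 and 2.01 CPM early and 0.872, 1.52, 0.690 and 0.516 late. SFRP1 also did not overlap, at 190, 160, 98.3 and 2992 CPM early and 22.6 to 50.4 late, with its highest value in the library that holds the thyroid markers.

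Other developmental pathways differed in the share of members that separated. Of 45 tested FGF and BMP genes, 7 were lower without overlap (15.56%) and 1 higher (2.222%), with a median of -0.66. BMP5, a secreted ligand, measured 21.5 to 69.5 CPM early and 5.46 to 16.7 late. Of 25 Hedgehog pathway genes, 2 were lower without overlap (8%) and 1 higher (4%), with a median of -0.63. GLI1, a transcription factor and target gene of that pathway, measured 11.7, 13.7, 4.52 and 5.12 CPM early and 4.65, 2.95, 4.32 and 2.69 late, so that day 120 replicate 1 exceeded day 80 replicate 1. SHH, its ligand, stood between 0.635 and 2.04 CPM in all 8 libraries. Of 31 Notch genes 2 were lower and 1 higher, and of 82 developmental transcription factors 6 were lower and 2 higher, shares of 6.452% and 7.317% lower that lie near the 5.54% of all genes.

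Matrix genes were lower late more often than higher. Of 69 tested fibroblast and matrix genes, 57 had a negative fold change, 12 were lower without overlap (17.39%) and 3 higher, with a median of -0.49. COL24A1, a fibrillar collagen of developing tissues, measured 50.6, 31.7, 9.36 and 6.73 CPM early and 1.30, 1.02, 1.29 and 0.516 late, with day 100 already at 1.31 and 1.17. The fibril-associated collagen COL12A1 measured 625, 637, 211 and 186 CPM early and 116, 46.9, 80.8 and 25.7 late. FBN2, the fetal fibrillin of elastic fibres, measured 620, 431, 243 and 114 CPM early and 73.7, 56.6, 56.1 and 45.3 late (log2 -2.60 ± 0.50, edgeR adjusted p = 0.0760). In all 3 genes the day 65 pair was above the day 80 pair, and all late libraries were lower than both.

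ELN, which encodes the elastin core that fibrillins scaffold, went the other way: 788, 1048, 982 and 380 CPM early and 1360, 1760, 3195 and 4680 late, with birth above day 120. Its log2 fold change was 1.78 ± 0.52 (edgeR adjusted p = 0.148). Day 100 did not lie between the stages, at 225 and 293 CPM. COL1A1 overlapped widely, from 7068 to 18050 CPM early and from 3807 to 11900 late, with 688 and 612 at day 100. The summed fibroblast and matrix list showed the same dip, with 10050 and 13480 CPM at day 100 against at least 37940 CPM in each of the 8 other libraries. Whether the day 100 tissue held less of the wall was not tested.

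Cartilage genes did not move as a group. Of 46 tested members, 2 were lower without overlap (4.348%) and 1 higher (2.174%), and the median was -0.05. COL2A1, the main cartilage collagen, measured 363, 394, 717 and 126 CPM early and 2316, 469, 3224 and 1035 late, and SOX9, the cartilage regulator, 40.5, 25.6, 45.7 and 120 early and 58.6, 58.3, 43.1 and 61.5 late. ACAN, which encodes aggrecan, also overlapped, at 25.5 to 88.2 CPM early and 31.6 to 211 late. SPP1, the bone and cartilage phosphoprotein osteopontin, did separate, from 289, 550, 774 and 159 CPM early to 66.7, 93.7, 28.5 and 72.0 late. THBS4, a thrombospondin of tendon and matrix, measured 432, 473, 417 and 228 CPM early and 121, 67.6, 141 and 99.5 late.

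Among genes outside the lists, PRSS35, a secreted protein with a serine protease fold, measured 158, 170, 95.2 and 36.0 CPM early, 16.01 and 11.4 at day 100, and 12.6, 8.54, 3.12 and 4.73 late (log2 -3.99 ± 0.63, edgeR adjusted p = 0.0584). PRND, which encodes the prion-like protein doppel, measured 9.39, 8.58, 4.73 and 4.88 CPM early and 1.16, 0.494, 0.0726 and 0.0861 late. UPK1A, a uroplakin of urothelium, measured 10.5, 3.68, 5.29 and 1.89 CPM early, 4.63 and 9.23 at day 100, and 0.684, 0.212, 0.0363 and 0.0430 late. In UPK1A, unlike in PRSS35, day 100 remained within the early range.

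Basement membrane and vessel genes mostly had negative fold changes (25 of 32 and 34 of 39), and a minority separated. Of 32 basement membrane genes, 3 were lower without overlap (9.375%) and 0 higher, and of 39 endothelial and lymphatic genes, 4 (10.26%) and 0, against 5.54% of all genes, with medians of -0.69 and -0.995. Day 80 replicate 2 held the highest endothelial sum (4820 CPM, against 1505 to 2249 CPM in the other early and 976 to 1791 CPM in the late libraries). Over 26 alternatives the endothelial median ranged from -1.45 to -0.05. Of 34 nerve and Schwann cell genes, 6 were lower without overlap (17.65%) and 2 higher (5.882%). NEFL, a neurofilament of axons, measured 9.04, 6.81, 6.24 and 5.63 CPM early, 2.84 and 3.29 at day 100, and 1.30, 1.06, 0.508 and 0.473 late, a steady order of the 5 ages. S100B, a Schwann cell and fat cell protein, was higher, at 1.25 to 4.62 CPM early and 23.4, 5.75, 24.5 and 8.22 late.

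Motile cilium genes were higher late throughout. All 82 tested members of the axoneme list had a positive fold change, 32 were higher without overlap (39.02%) and 0 lower, and the median was 1.25. None passed the main test, and the fit with the length slope called 33 higher and 0 lower. The summed level was 2444, 3421, 8502 and 2221 CPM in the early libraries and 7410, 11830, 7982 and 13550 CPM in the late ones, so day 80 replicate 1 overlapped with the late stage. Day 100 reached 10700 and 9639 CPM, within the late range. CDHR3, an airway cadherin of ciliated cells, measured 8.70, 12.3, 22.5 and 7.31 CPM early and 52.0, 56.0, 75.1 and 94.5 late (log2 2.45 ± 0.40, edgeR adjusted p = 0.0587). DNAH9, an outer dynein arm heavy chain, measured 97.5, 137, 283 and 77.6 CPM early and 367, 414, 464 and 541 late. FOXJ1, the master regulator of motile cilia, measured 113, 169, 660 and 107 CPM early, 742 and 653 at day 100, and 338, 770, 311 and 819 late. Its late values paired by the sign of the length slope, with the 2 libraries below 0 at 770 and 819 CPM, and the early library at 660 CPM has a slope below 0 as well. The log2 fold change of FOXJ1 was 1.09, and 0.66 with the length slope as a covariate (edgeR adjusted p = 0.168). Its log2 ratio of late over early was 1.32 between libraries of high slope and 0.27 between those of low slope. The axoneme list had medians of 1.46 and 0.62 in the same splits. Day 80 replicate 1 is the only early library of low slope. The cause of this pattern was not tested. Among the 15 tested regulators of multiciliated cells, RFX2 and RFX3 were the 2 that did not overlap, at 31.0 to 77.3 against 78.2 to 103 CPM and at 31.9 to 46.7 against 60.7 to 68.6 CPM.

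Secretory cell and gland genes were also higher late more often than all genes. Of 36 tested secretory and goblet cell genes, 11 were higher without overlap (30.56%) and 1 lower, with a median of 1.18. Of 30 gland and antimicrobial genes, 8 were higher (26.67%) and 0 lower, with a median of 0.26, and PIGR and LPO are 2 of these. MSMB, a small secreted protein of glands, measured 0.119, 0.157, 1.11 and 0.0997 CPM early, 4.26 and 2.73 at day 100, 11.4 and 42.3 at day 120, and 116 and 565 at birth. Day 100, day 120 and birth followed in rising order above the early libraries, with a log2 fold change of 8.97 ± 1.64 (edgeR adjusted p = 0.0691). LTF, the iron-binding antimicrobial lactoferrin, measured 1.86, 1.39, 12.7 and 2.22 CPM early, 73.7 and 52.6 at day 100, 29.4 and 26.2 at day 120, and 406 and 331 at birth (log2 5.45 ± 1.27, adjusted p = 0.0894).

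BPIFA1 and BPIFB1, secreted airway proteins of the PLUNC family, had their high values at birth. BPIFA1 measured 0.0747 to 0.358 CPM early, 1.40 and 0.804 at day 100, 0.564 and 5.05 at day 120, and 151 and 1278 at birth. BPIFB1 measured 1.94 to 3.90 CPM early, 32.7 and 21.2 at day 100, 6.84 and 26.8 at day 120, and 439 and 1111 at birth. Both had all late libraries above all early ones, yet their log2 fold changes of 10.78 ± 2.49 and 6.97 ± 1.55 (edgeR adjusted p = 0.0890 and 0.0869) rest largely on the 2 birth libraries, and for BPIFA1 these stand far apart. GP2, a glycoprotein of secretory granules that binds bacteria, measured 3.24, 0.685, 3.89 and 0.997 CPM early, 123 and 44.6 at day 100, and 12.2, 85.6, 807 and 622 late. CLCA1, a secreted regulator of goblet cell mucus, measured 33.4, 5.23, 36.6 and 2.84 CPM early and 534, 107, 311 and 389 late. DMBT1, a mucin-like scavenger receptor, overlapped, at 361 to 2018 CPM early and 1507 to 7636 late.

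**Figure D3:**
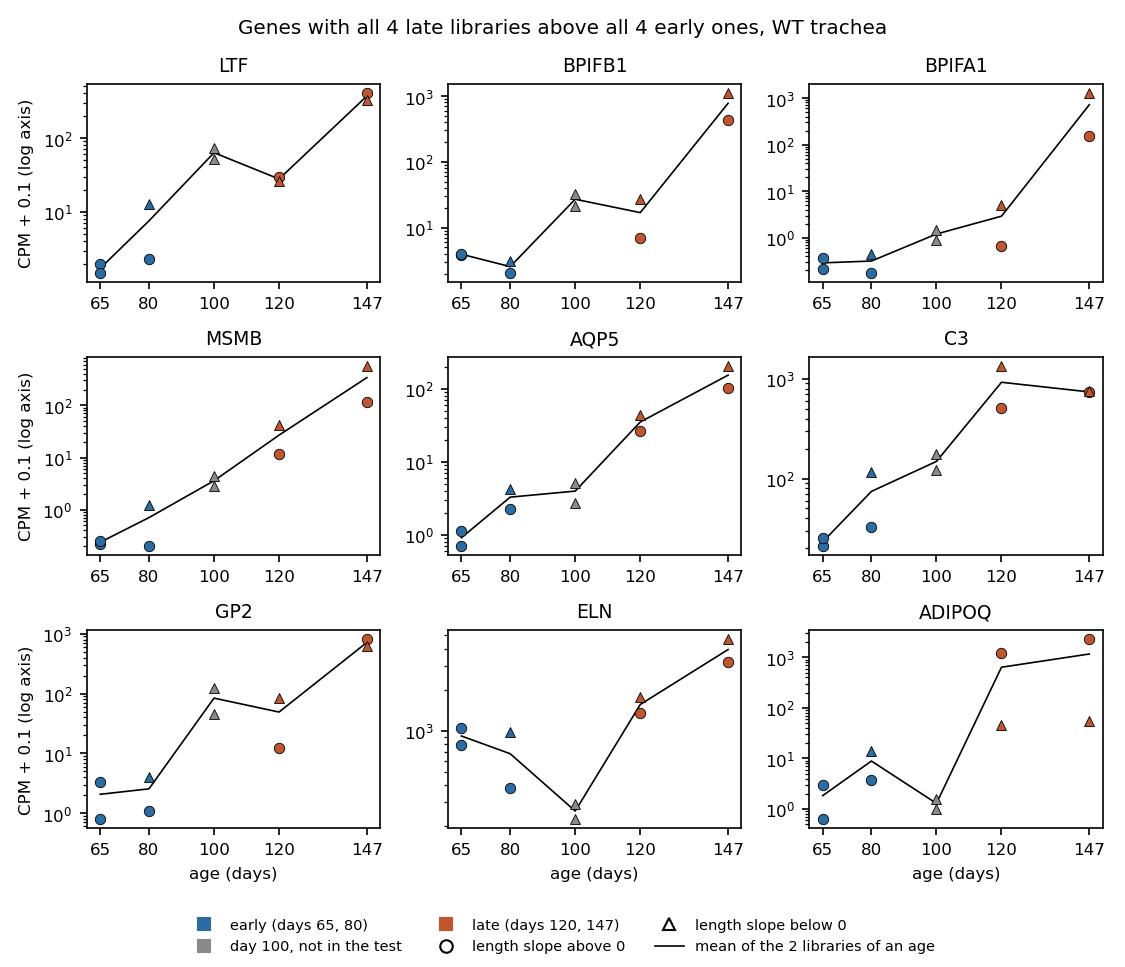
CPM plus 0.1 (vertical log axes) against gestational age in days for 9 genes that did not overlap between stages, 1 marker per library, with a line through the age means. BPIFA1 and BPIFB1 have their highest values at birth, C3 has its highest library at day 120, ELN dips at day 100, and the 2 late libraries of low length slope (triangles) stand far below the other late ones for ADIPOQ.

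Several smaller secretory products followed the same split. ZG16B, a lectin-like gland protein, measured 0.344, 0.0979, 1.27 and 0.0498 CPM early, 3.30 and 4.38 at day 100, 4.96 and 3.30 at day 120, and 44.3 and 58.6 at birth. TCN1, a vitamin B12 binding protein of secretions, measured 1.97, 2.86, 15.8 and 12.5 CPM early and 63.2, 30.1, 88.0 and 160 late. AZGP1, a secreted zinc-binding glycoprotein, measured 3.75, 4.21, 28.2 and 5.21 CPM early and 44.3, 63.0, 50.1 and 122 late. In all 3 genes day 80 replicate 1 was the highest early library, and no late library fell below it.

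The gel-forming mucins overlapped between stages. Both were counted on short gene models on unplaced scaffolds (1350 exon bases for MUC5B and 2568 for MUC5AC), so their levels cover only those models. MUC5B measured 1.16, 0.666, 0.251 and 0.386 CPM early and 5.68, 0.477, 20.1 and 0.839 late, so that only day 120 replicate 1 and birth replicate 1 exceeded the early range. It did not pass the main test (log2 3.45 ± 1.19, edgeR adjusted p = 0.199), but passed with the length slope as a covariate (log2 3.77, adjusted p = 0.0291). MUC5AC ran from 0.143 to 6.75 CPM early and from 0.141 to 5.61 late. For both genes the higher library at each late age was the one whose length slope is above 0. MUC4, a membrane mucin, was the 1 secretory gene that was lower without overlap, at 42.1, 16.9, 12.2 and 49.1 CPM early and 8.76, 3.64, 1.65 and 0.861 late.

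SCGB3A2, a secretoglobin of airway secretory cells, had the highest level per transcript length in both stages, with a mean of 14050 TPM (counts divided by exon length and set to a common sum) early and 83740 TPM late. Its CPM overlapped between stages: 1200, 399, 19780 and 972 early, 15740 and 20110 at day 100, and 14340, 20070, 16200 and 80190 late. Day 80 replicate 1 is the early library that reached the late range, and SCGB3A2 took 6.478% of all counts in day 147 replicate 2. Without day 80 replicate 1 the early mean was 4385 TPM and the early rank 17, so the first early rank rests on that library. The related SCGB1A1, the club cell protein, was left out by the filter because fewer than 4 of the 8 libraries held enough counts. Its counts were 2, 4, 2 and 0 early, 22 and 40 at day 100, 24 and 0 at day 120, and 221 and 894 at birth, with most of them in the birth libraries. SCGB3A1 was not analysed here.

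More complement genes were higher than lower. Of 30 tested, 9 were higher without overlap (30%) and 0 lower, with a median of 0.92. C3, the central component, measured 20.8, 25.2, 116 and 32.1 CPM early, 175 and 122 at day 100, and 508, 1342, 732 and 747 late (log2 4.10 ± 0.68, edgeR adjusted p = 0.0587). CFB, the protease of the alternative pathway, measured 33.9, 27.2, 49.6 and 16.9 CPM early and 113, 78.7, 173 and 162 late. CD55, which protects cells from complement, measured 98.5, 93.7, 137 and 39.0 CPM early and 280, 335, 395 and 422 late. The terminal component C9 went from 2.35 to 5.54 CPM early to 7.84 to 39.3 late. Of 15 tested liver and plasma protein genes, 12 had a positive fold change, 2 were higher without overlap (13.33%) and 0 lower, and the median was 0.65. Their sum was 185 to 404 CPM early and 343 to 621 CPM late. The defining liver genes AFP, APOA2 and FGA had no count in any of the 8 libraries, and the part of liver or plasma RNA in the complement values was not tested.

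Water channels separated the stages while CFTR and the sodium channel did not. AQP5, the apical water channel of gland cells, measured 0.593, 1.02, 4.16 and 2.16 CPM early, 5.04 and 2.64 at day 100, 26.5 and 43.0 at day 120, and 102 and 203 at birth (log2 5.56 ± 0.91, edgeR adjusted p = 0.0587). AQP3 and AQP4, basolateral channels, also did not overlap: 30.4 to 71.3 against 104 to 268 CPM, and 67.8 to 288 against 355 to 875 CPM. CFTR, the anion channel mutated in cystic fibrosis, measured 35.4, 21.3, 14.5 and 9.73 CPM early, 25.6 and 31.7 at day 100, and 33.8, 16.2, 26.9 and 18.4 late. Its log2 fold change was 0.24 ± 0.43, and the late libraries lay within the early range. SCNN1A, the alpha subunit of the epithelial sodium channel, overlapped through 1 early library (12.2 CPM in day 80 replicate 2, against 9.95 to 29.2 late and 1.15 to 5.13 in the other early ones). SCNN1B measured 4.60, 5.89, 5.81 and 227 CPM early and 5.85, 10.5, 52.1 and 66.9 late, and SCNN1G 4.995, 3.96, 1.47 and 74.5 early and 5.85, 3.64, 41.2 and 15.2 late. The highest early value of all 3 subunits came from the library with the thyroid markers. Without that library the log2 fold changes of SCNN1B and SCNN1G turned from -0.84 and -0.37 to 2.64 and 2.24, still not past the test.

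Of all 40 tested ion and fluid transport genes, 9 were higher without overlap (22.5%) and 1 lower, with a median of 0.75. Of 18 tested ionocyte genes, 3 were higher without overlap (16.67%) and 0 lower. ATP6V1B1, a subunit of the proton pump, was at 13.6 to 51.3 against 95.5 to 236 CPM. HEPACAM2 was at 0.451 to 2.37 against 5.34 to 18.4 CPM, and BSND stayed under 1 CPM in every library. Basal cell genes did not move as a group, with 2 of 23 higher (8.696%) and 1 lower (4.348%). Their median of -0.33 turned positive with the length slope as a covariate, without day 65 and without day 147. TP63, the basal cell regulator, measured 126, 103, 35.2 and 15.2 CPM early and 125, 81.7, 108 and 61.8 late, and KRT5, a basal keratin, 416, 387, 472 and 80.2 CPM early and 474, 721, 241 and 500 late. NGFR, a neurotrophin receptor of basal and nerve cells, was lower without overlap, at 15.8 to 30.9 CPM early and 2.98 to 9.23 late.

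**Figure D4:**
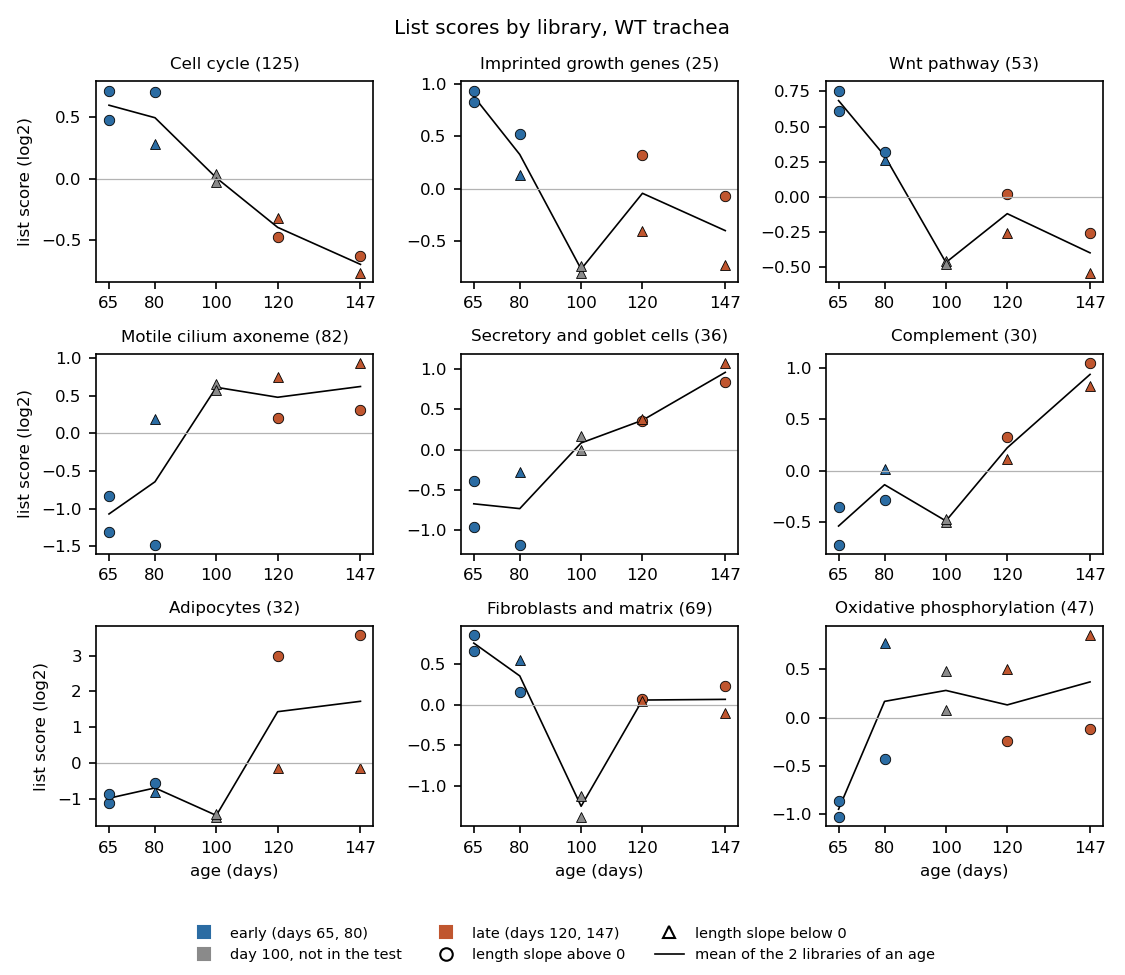
Score of 9 gene lists (the mean over tested members, number in brackets, of a gene's log2(CPM + 0.1) after subtracting its 10-library average) against gestational age in days, 1 marker per library. The cell cycle score falls below 0 in all late libraries, the cilium and oxidative phosphorylation scores are higher at each late age in the library of low length slope (triangles), and the adipocyte score is high in the 2 late libraries of high slope alone.

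Fat cell genes had the highest median of the 46 lists, 3.43 over 32 tested members, but 2 libraries carried it. The list summed to 487 to 566 CPM in the early libraries, 313.5 and 346 CPM at day 100, and 8211 and 10520 CPM in day 120 replicate 1 and birth replicate 1, against 613 and 696 CPM in the second library of those ages. Between libraries of high slope the median log2 ratio of late over early was 4.44, and between those of low slope it was 0.81. The latter ratio has day 80 replicate 1 as its only early library. The hormone adiponectin, ADIPOQ, measured 0.522 to 13.9 CPM early and 1229, 46.6, 2278 and 53.7 late, and FABP4, a fatty acid carrier, 0.558 to 8.73 CPM early and 245, 51.1, 1268 and 134 late. Thus 11 members were higher without overlap (34.38%) even though the 2 libraries of each late age were far apart. The part of tissue sampling in these values was not tested.

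Smooth muscle genes were higher in part. Of 35 tested, 7 were higher without overlap (20%) and 0 lower, with a median of 0.76. MYH11, the smooth muscle myosin heavy chain, measured 63.0, 108, 87.8 and 55.2 CPM early and 227, 365, 218 and 278 late (log2 1.79 ± 0.30, edgeR adjusted p = 0.0587). The 2 day 100 libraries differed, at 224 and 9.04 CPM, although they carry the same sample identifier. MYLK, the kinase that activates this myosin, showed the same, at 297 and 17.2 CPM at day 100. Its early libraries held 65.2 to 149 CPM and its late ones 180 to 372.

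Immune gene lists differed in their share of members that separated, against 5.65% higher and 5.54% lower over all genes. MPO, a peroxidase of neutrophil granules, measured 0.119, 0.372, 0.520 and 0.635 CPM early and 19.7, 6.57, 95.0 and 36.7 late (log2 6.58 ± 0.98, edgeR adjusted p = 0.0582). It is a paralog of LPO, as MX1 is of MX2, and how reads that match both copies were counted is not recorded in the labels used here. Of 33 myeloid genes 2 were higher without overlap (6.061%), near the share of all genes. Of 38 lymphocyte genes, 4 were lower without overlap (10.53%) and 1 higher (2.632%). CD8B, a T cell co-receptor chain, measured 8.16, 72.8, 18.3 and 61.5 CPM early and 1.81, 1.73, 0.545 and 1.68 late, with its 2 highest values in the libraries that hold thymus markers. Without those libraries the lymphocyte median turned from -1.75 to 0.62. JCHAIN, which joins polymeric immunoglobulin, stood at 3.15 to 5.11 CPM in all 8 libraries, while PIGR, which transports it, rose. Of 38 interferon response genes, 4 were higher without overlap (10.53%) and 0 lower, with a median of 0.50; besides MX2 they include MX1, at 7.46 to 27.9 against 53.9 to 84.4 CPM.

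Of the 37 tested glucocorticoid response genes, 7 were higher without overlap (18.92%) and 0 lower, with a median of 0.30. GLUL, glutamine synthetase, measured 274, 260, 300 and 152 CPM early, 501 and 492 at day 120, and 1117 and 1055 at birth. FKBP5, a chaperone that glucocorticoids induce, was at 40.9, 42.9, 22.3 and 86.1 CPM early, 21.9 and 17.4 at day 120, and 89.1 and 107 at birth, and ZBTB16, another induced gene, reached 26.3 CPM in birth replicate 1 and 2.47 in birth replicate 2. HSD11B1, which regenerates active glucocorticoid, was higher at a low level (0.561 to 0.807 against 1.66 to 4.38 CPM), whereas HSD11B2, which inactivates it, overlapped. Without day 147 the median of this list was -0.09.

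Enzyme genes of detoxification were higher in part. Of 33 xenobiotic and lipid metabolism enzymes, 7 were higher without overlap (21.21%) and 1 lower. MAOB, an amine oxidase, measured 0.523 to 2.72 CPM early and 15.6 to 33.4 late (log2 3.57 ± 0.55, edgeR adjusted p = 0.0582). Of 44 glutathione and antioxidant genes, 4 were higher without overlap (9.091%) and 0 lower. All 47 tested nuclear genes of oxidative phosphorylation had a positive fold change with a median of 0.50, yet 1 did not overlap (2.128%), below the share of all genes, and with the length slope as a covariate the median was 0.18. COX1, a mitochondrially encoded subunit, had its highest values in birth replicate 1 (19610 CPM) and day 120 replicate 1 (10230 CPM), the 2 late libraries of high slope.

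Of the 43 key genes, 40 could be tested, 2 passed (PIGR and LPO), 11 were higher without overlap (these 2 included), 4 were lower, and 25 overlapped. SOX11, a progenitor transcription factor, is an example of the last kind, at 8.73 to 28.4 CPM early and 8.65 to 25.3 late.

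For most genes that separated, the day 100 mean lay between the stage means. This was so in 657 of the 1040 genes higher late (63.17%) and 533 of the 1019 lower (52.31%), against 27.84% of all tested genes. It lay beyond the late mean in 290 (27.88%) and 416 (40.82%), against 48.01% of all tested genes. The step between neighbouring ages with the largest change was day 80 to day 100 in 673 of 1040 (64.71%) and in 649 of 1019 (63.69%). The selection of genes that separate day 80 from day 120 itself favours steps inside that interval, and the day 100 pair has slopes below 0. Selection for a gap between the stages also leaves more room for day 100 to lie between them. The shares of all tested genes are thus not a like comparison, and no conclusion on day 100 is drawn from the contrast. Of the 9 genes that passed, 7 had day 100 between the stages and 2 (FNDC1 and FBN3) beyond the late mean.

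The same split was counted in the CF libraries of the same ages. Of 18395 genes tested in both genotypes, 1790 were higher late without overlap in CF (9.73%) and 1855 lower (10.1%). Of the 1039 genes higher in WT, 625 were also higher in CF (60.15% of the WT genes and 34.92% of the CF genes), and of the 1019 lower, 693 were also lower (68.01% and 37.36%). None had the opposite direction. All 9 genes that passed in WT also separated in CF. A test of the difference itself (edgeR, stage by genotype, 16 libraries, 19133 genes) called 0 genes (0%), with 566 at an unadjusted p under 0.05, and DESeq2 called 22. CF levels below were scaled by TMM over the 16 libraries of this test, and WT levels over the 10 WT libraries. The 2 scales are thus not the same. Among the 9, LPO showed the widest gap. Its CF early libraries held 227, 175, 102 and 547 CPM, each above every WT early library, and its CF late libraries 1849, 1851, 2598 and 2437. The WT log2 change exceeded that in CF by 3.26 ± 0.81 (adjusted p = 0.999), which does not pass the test. PIGR started as low in CF (0.546 to 3.68 CPM) and reached 517 to 1315 CPM late. Among the key genes, BPIFA1 and BPIFB1 had wider gaps than LPO. BPIFA1 measured 0.0986 to 1.51 CPM in the CF early libraries and 0.964, 1.43, 3.16 and 2.45 CPM in the CF late ones, against 151 and 1278 CPM at WT birth, and its stages overlapped in CF. The WT change exceeded that in CF by 9.30 ± 2.26 on the log2 scale (edgeR adjusted p = 0.999). BPIFB1 measured 5.66 to 13.7 CPM early and 29.3, 36.5, 87.8 and 97.9 CPM late in CF, a difference of 4.23 ± 1.42 (edgeR adjusted p = 0.999). Neither difference passed the test.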

How the data were processed

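The deposited tables hold raw read counts per gene. Per the submitters' processing notes, tools named are STAR 2.6, Subread and featureCounts 1.6.3; the genome build, annotation version and strand setting are not stated in the labels or table headers used here. Even numbers made up 70.72 to 85.34% of counts from 1 to 20; the cause was not tested. WT counts were scaled by TMM over 10 libraries, filtered with filterByExpr over the 2 stages and fitted with stage alone (edgeR 4.0.16 in R 4.3.3, robust quasi-likelihood, Benjamini-Hochberg, threshold 0.05). DESeq2 1.42.0 and limma 3.58.1 were alternatives. Counts were also simulated for 18402 genes, most of them left level between the stages. Of 67 genes simulated with a 2-fold difference, the test called 0%. It called 28.4% of another 67 at 4-fold, and 84.8% of a further 66 at 16-fold. Same-numbered replicates did not deviate together over all ages, so numbers were not used as pairs. They did so between days 120 and 147 (correlation 0.859). Day 80 went against both late ages (-0.669 and -0.68), and day 65 gave 0.02 to 0.205 with the other ages. The 46 gene lists, the key genes and the comparison were chosen with earlier results of these data known. Genes named were those past the threshold (at most 10 a direction, with a symbol and mean log2 CPM of at least 1), the key genes, up to 4 called members per list, and others said to be picked later. Of 1905 list genes, 1692 matched the tables; the rest were not analysed here. Replicates of an age differed by more than counting noise (chi-square per gene of at least 100.2).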

Additional observations from a re-analysis of the deposited data

Results flagged for a closer look

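Over 47 genes and 94 groups of 4 libraries, 9 groups held a library set apart from its group by Dixon's criterion (critical value 0.829). Its chance rate of about 1 in 20 groups assumes normally distributed values. CPM were used without a log scale, so the 9 groups cannot be read against that rate. In the early stage, day 80 replicate 1 was highest for FOXJ1 (659.7 CPM, next 169.1), C3 (116 CPM, next 32.1) and LTF (12.72 CPM, next 2.22). Day 80 replicate 2 was highest for SCNN1B (226.5 CPM, next 5.89) and SCNN1G (74.46 CPM, next 4.995) and lowest for WFIKKN2 (18.09 CPM, next 56.1). In the late stage, birth replicate 2 was highest for BPIFA1 (1278 CPM, next 151), and birth replicate 1 was highest for ZBTB16 (26.29 CPM, next 2.63) and lowest for SOX9 (43.11 CPM, next 58.3).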

How the results depend on the processing

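Directions of the 9 genes past the test held under all 26 alternatives, and each kept its call in 10 to 15 of them. Against 9 genes called (6 higher, 3 lower), RLE size factors, no filter on low counts and at least 20 counts in 4 libraries gave the same counts. DESeq2 called 1775 (941 higher, 834 lower), limma-voom 31 (22 and 9), library size alone 3 (3 and 0), 1 coefficient per age 504 (273 and 231), day 147 against day 65 277 (138 and 139), a linear trend on age 472 (239 and 233), and the length slope as a covariate 1586 (866 and 720). A replicate block called 0 (0 higher, 0 lower), with 2524 genes at an unadjusted p under 0.05. Without the libraries holding other tissue (day 65 replicate 2 and day 80 replicate 2) 0 were called (0 and 0; 1654 unadjusted), without day 65 0 (0 and 0; 1825 unadjusted), without day 80 2 (2 and 0), without day 120 2 (2 and 0) and without day 147 1 (1 and 0). Leaving out 1 library at a time gave 0 to 615 genes called, 0 to 423 higher and 0 to 192 lower, and 1182 to 2440 genes above and 1078 to 2429 below without overlap. Of the latter 2 counts (1040 and 1019), fewer libraries gave more: 1775 and 1764 without the libraries holding other tissue, 1702 and 1702 without day 65, 3848 and 4118 without day 80, 1916 and 2077 without day 120, and 1606 above without day 147. Chosen after seeing the data, leaving out the libraries of low length slope called 276 (235 and 41; 3917 and 3724 without overlap), and 1 coefficient per age with the length slope called 3575 (1790 and 1785). The difference between WT and CF called 0 genes under each alternative except DESeq2 (22). The cause of these differences in count was not tested.

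Among the genes named, signs turned for some that missed the test. Comparing day 147 with day 65 gave log2 fold changes of -0.43 for TP63, -0.12 for KRT5, -0.33 for CFTR, 3.50 for SCNN1B, 2.65 for SCNN1G, 0.66 for SOX9, 1.35 for TG and 1.51 for SLC5A5. Without day 80 they were -0.28 for TP63, -0.25 for CFTR, 2.69 for SCNN1B, 1.88 for SCNN1G, 0.75 for SOX9, 0.78 for TG and 1.52 for SLC5A5. Leaving out 1 library at a time gave -1.40 to 2.64 for SCNN1B, -1.36 to 2.24 for SCNN1G, -0.31 to 0.57 for SOX9 and -1.73 to 1.01 for SLC5A5, each at its highest without day 80 replicate 2, and -0.021 to 0.91 for ACAN and -0.80 to 1.98 for ZBTB16, each negative only without birth replicate 1. Without both libraries holding other tissue they were 2.70 for SCNN1B, 2.34 for SCNN1G and 0.71 for SLC5A5. Without day 147 they were 0.22 for SOX11, -1.28 for FKBP5 and -1.17 for ZBTB16. COL1A1 was at 0.13 without day 65, SLC5A5 at 0.10 with limma-voom and SCNN1G at 1.22 with 1 coefficient per age and the length slope. The fit of 4 against 4 libraries recovered few changes of 4-fold or less in simulated counts (28.4% of 4-fold and 0% of 2-fold changes), so a gene that missed the test is not shown to be level. The simulated libraries of a stage shared a common mean per gene, and few genes were changed. These rates may therefore differ from those of the real test.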
